A study of Mus musculus with 18 samples.

Results

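The enzymes that bring pyruvate carbon into the tricarboxylic acid (TCA) cycle and turn the cycle were followed in mouse liver through 9 genes: Pdha1, Cs, Idh2, Idh3a, Ogdh, Suclg1, Suclg2, Fh1 and Mdh2. They were taken by symbol from a liver RNA-seq count table of 35441 genes. All 9 were found, and all 9 were among the 14533 genes tested, for which a sum of over 100 reads in 18 mice was required. These 9 genes had been picked with earlier results of the same mice known, so their counts describe them and are not independent evidence about the pathway.

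The livers came from male mice on a C57/BL6N background. WT littermates were compared with Lipa-/- mice, which lack lysosomal acid lipase (LAL) because a Lipa tm1a allele was recombined by a CMV-Cre that acts in the whole body and deleted exon 4. Treated Lipa-/- mice had received rAAV8.hAAT.LIPA, an AAV vector that expresses human LIPA from the hepatocyte-specific hAAT promoter, by tail vein at an age of 10 to 12 weeks, whereas the WT and untreated Lipa-/- mice are labelled as having no treatment. The label time points of 3 and 8 months are the 12- and 34-weeks points after injection of the study, and each of the 6 groups of genotype, treatment and time held 3 mice. The untreated Lipa-/- line has a reduced lifespan. Per the study's methods, most untreated Lipa-/- mice of the late group did not live to 34 weeks and were taken earlier, at ethical endpoints. The labels do not say which, so in every comparison of untreated Lipa-/- mice at 34 weeks, age and disease stage at collection cannot be told apart from the genotype or treatment.

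The 9 genes lie on 8 chromosomes, since Suclg1 (chr6:73225365-73253894) and Suclg2 (chr6:95433231-95695866) share one (GRCm39). Cs lies at chr10:128172837-128198363, Idh2 at chr7:79741431-79765535 and Idh3a at chr9:54493575-54514730. Ogdh lies at chr11:6241551-6309233, Fh1 at chr1:175425290-175453205, Mdh2 at chr5:135807292-135820882 and Pdha1 at chrX:158904237-158921426. Their canonical transcripts hold 9 to 23 exons, with the most in Ogdh.

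Pyruvate made in the cytosol enters mitochondria through a carrier and is oxidised to acetyl-CoA by the pyruvate dehydrogenase (PDH) complex, whose E1 alpha subunit is Pdha1. Citrate synthase (Cs) joins acetyl-CoA to oxaloacetate, the isocitrate dehydrogenases (Idh3a in the NAD-linked enzyme, Idh2 as the NADP-linked enzyme) and oxoglutarate dehydrogenase (Ogdh) release its carbon as CO2, and succinyl-CoA ligase (the shared alpha subunit Suclg1 with a GTP-type beta subunit, Suclg2), fumarase (Fh1) and malate dehydrogenase (Mdh2) return it to oxaloacetate. In liver the cycle also feeds gluconeogenesis and lipid synthesis and receives carbon from amino acids and from fatty acid oxidation.

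The libraries held 17527848 to 25833134 assigned reads. Mouse Lipa was lower in every Lipa-/- mouse, treated or not, at 16.7 to 37 CPM (read counts scaled to library size with TMM factors) against 202 to 323 CPM in WT mice, and the human LIPA transgene was read at 523 to 2745 CPM in the treated mice. The livers differed in makeup. The sum of 9 macrophage markers (all 9 higher in Lipa-/- than in WT mice at both times) was 85.1 to 346 CPM in WT mice, 4581 to 9435 CPM in untreated Lipa-/- mice, 796 to 2613 CPM in treated mice at 12 weeks and 306 to 689 CPM in treated mice at 34 weeks. The sum of 10 hepatocyte markers, at 80479 to 106673 CPM in WT mice, was 73040 to 91695 CPM in untreated Lipa-/- mice at 12 weeks and 48646 to 85861 CPM at 34 weeks, with 4 of the 10 lower and 1 higher at 12 weeks and 7 lower and 1 higher at 34 weeks. The sum of 6 stellate cell markers was 90.5 to 196 CPM in WT and 722 to 2444 CPM in untreated Lipa-/- mice, with 4 of the 6 higher and 1 lower at 12 weeks and 5 higher and 1 lower at 34 weeks. The TMM factor, which corrects for a few genes taking many reads, was 0.806 to 1.07 in WT mice, 1.16 to 1.69 in untreated Lipa-/- mice and 0.587 to 0.759 in treated mice at 12 weeks. In the latter 3 libraries genes over 4000 bases were also low against genes under 1000 bases (a log2 difference of -1.48 to -1.19, relative to the mean library), as in WT mouse 1 at 34 weeks (-0.86). The other libraries lay between -0.51 and 1.20.

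With TMM factors, Pdha1, Cs, Suclg1 and Suclg2 were below WT levels at both time points in livers of untreated Lipa-/- mice. Fh1 and Mdh2 passed as lower at 34 weeks only, and Idh2, Idh3a and Ogdh passed at neither time in edgeR. In DESeq2 with gene length offsets Idh2 passed as higher at 12 weeks (0.64, adjusted p = 0.0148). Mdh2 did not pass there at 34 weeks (-0.45, adjusted p = 0.0669). Partner subunits of Idh3a and Ogdh did fall, and fewer members passed as lower with total counts or TPM, as given below. At 12 weeks 4 of the 9 genes were lower, Suclg1, Pdha1, Suclg2 and Cs, and none was higher, where 16.3% of all genes tested were lower and 22.9% were higher. At 34 weeks 6 of the 9 were lower, Fh1 and Mdh2 in addition, and none was higher, where 23.5% of all genes were lower and 23.8% were higher. Past a 2-fold difference were 1 member at 12 weeks (Suclg1, with 9.06% of all genes lower by that much) and 5 members at 34 weeks (15.7% of all genes). The median log2 fold change of the 9 genes was -0.60 at 12 weeks and -1.02 at 34 weeks, against 0.02 and -0.03 over all genes tested. Without 3 mice with doubted libraries (WT mouse 1 at 34 weeks, Lipa-/- mouse 5 and treated mouse 10 at 12 weeks), the same 4 and 6 genes were lower, and Idh2 passed as higher at 12 weeks (0.64, adjusted p = 0.021). The log2 difference of long from short genes was -0.86, 0.26 and -1.48 in these 3, and mouse 5 has a study code of its own. Treated mice 11 and 12 at 12 weeks, at -1.19 each, were kept, so this choice does not remove the low level of long genes. In a whole liver, fewer hepatocytes and less RNA per hepatocyte cannot be told apart, and the part of the macrophage and hepatocyte marker levels given above in these differences was not tested.

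**Figure D1:**
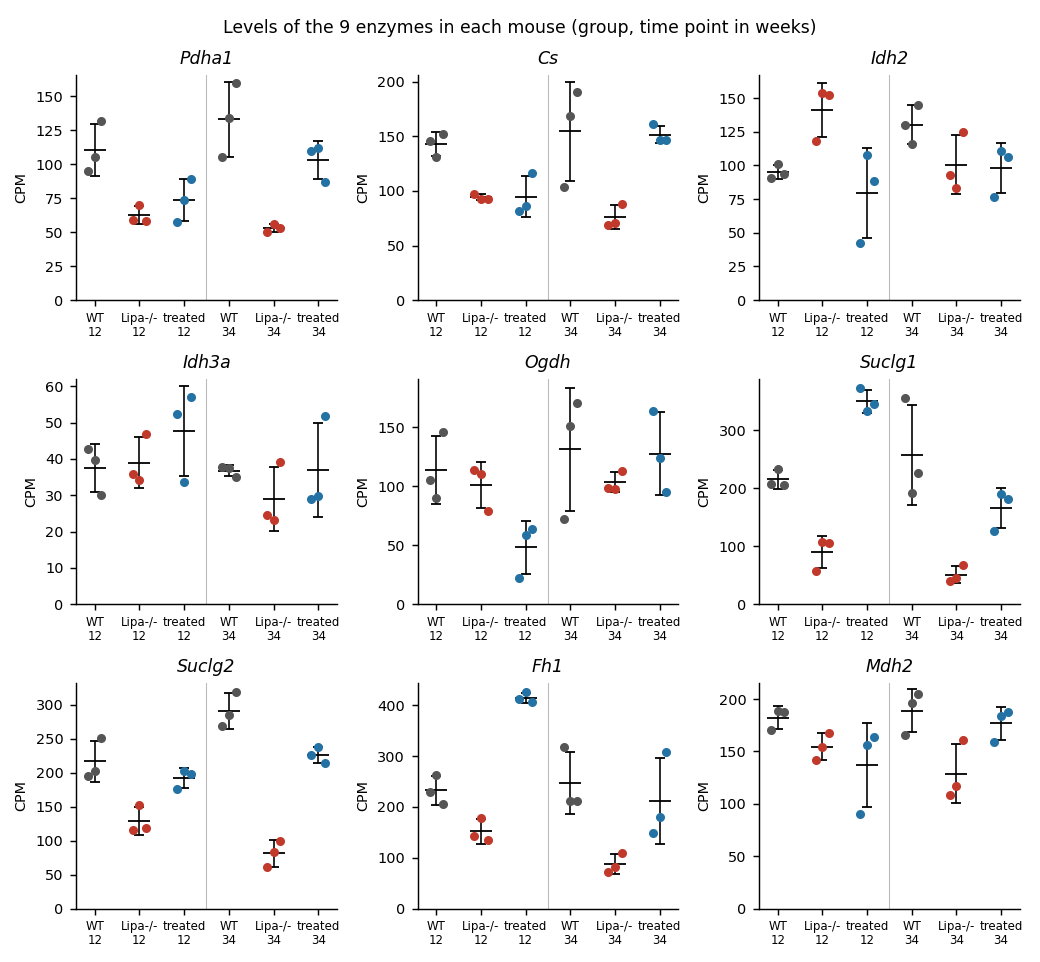
Each panel plots 1 of the 9 enzymes in CPM (TMM-scaled) for each mouse; points are mice, the bar is the mean and the whiskers are the SD of 3 mice, by group and time point in weeks. Suclg1, Suclg2, Pdha1, Cs, Fh1 and, by little, Mdh2 show untreated Lipa-/- mice below all WT mice of the same time point. Idh3a and Ogdh overlap with WT at 12 weeks, and Idh2 lies above WT there.

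Suclg1, the alpha subunit of both forms of succinyl-CoA ligase, fell further than the other 8 members at both time points. Its level was 207, 234 and 205 CPM in WT mice 1, 2 and 3 at 12 weeks, and 57.6, 107 and 105 CPM in Lipa-/- mice 5, 8 and 9. At 34 weeks it was 355, 192 and 226 CPM in WT mice 1, 2 and 3, and 41, 45.8 and 67.2 CPM in Lipa-/- mice 4, 5 and 6. No Lipa-/- mouse reached the lowest WT mouse at either time point. Suclg1 was 2.4-fold lower at 12 weeks (log2 fold change -1.26, SE 0.28, edgeR adjusted p = 0.00197) and 5.02-fold lower at 34 weeks (-2.33, SE 0.28, edgeR adjusted p = 7.41e-06).

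Suclg2 encodes the beta subunit of the GTP-forming enzyme. It was read at 195, 203 and 251 CPM in WT mice and at 116, 153 and 119 CPM in Lipa-/- mice at 12 weeks. At 34 weeks the WT mice had 268, 285 and 319 CPM and the Lipa-/- mice 61.1, 82.6 and 99.5 CPM, so that the groups were separate at both times. The difference was 1.67-fold at 12 weeks (-0.74, SE 0.20, edgeR adjusted p = 0.00708) and 3.59-fold at 34 weeks (-1.84, SE 0.20, edgeR adjusted p = 2.31e-06). The ATP-type beta subunit Sucla2 fell as well (log2 fold changes -1.46 and -1.95), so with TMM factors all 3 subunit genes of succinyl-CoA ligase were lower at both time points. At 12 weeks Suclg2 did not pass with total counts (-0.28, edgeR adjusted p = 0.309) or TPM (-0.27, limma adjusted p = 0.441).

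Fh1, fumarase, hydrates fumarate to malate. It was 229, 263 and 205 CPM in WT mice and 142, 179 and 134 CPM in Lipa-/- mice at 12 weeks. On this scale the groups were separate, but Fh1 did not pass the test over all genes (-0.62, SE 0.26, edgeR adjusted p = 0.0755). Scaled for length, it was 123, 148 and 139 TPM in WT and 184, 197 and 128 TPM in Lipa-/- mice (0.29, limma adjusted p = 0.44). DESeq2 with gene length offsets gave -0.17 (adjusted p = 0.713), so a fall at 12 weeks was not seen once length was included. At 34 weeks WT mice had 317, 212 and 212 CPM and Lipa-/- mice 71.4, 80.8 and 109 CPM. There Fh1 was 2.84-fold lower (-1.51, SE 0.26, edgeR adjusted p = 0.000223). DESeq2 with gene length offsets gave -1.06 (adjusted p = 0.00333) and TPM -0.40 (limma adjusted p = 0.238). Mdh2 is the malate dehydrogenase that closes the cycle. Its 170, 189 and 188 CPM in WT mice at 12 weeks stood against 142, 154 and 168 CPM in Lipa-/- mice (-0.23, SE 0.22, edgeR adjusted p = 0.429), and its 166, 196 and 205 CPM at 34 weeks against 108, 117 and 161 CPM (-0.56, SE 0.22, edgeR adjusted p = 0.0485). The latter call was lost on leaving out WT mouse 2 (adjusted p = 0.101), WT mouse 3 (0.128), Lipa-/- mouse 4 (0.174) or Lipa-/- mouse 5 (0.145). DESeq2 with gene length offsets did not make that call (-0.45, adjusted p = 0.0669).

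At the entry of the cycle, Pdha1 carries the serines whose phosphorylation switches the PDH complex off. Pdha1 was 95, 105 and 132 CPM in WT mice and 59, 70.3 and 58.4 CPM in Lipa-/- mice at 12 weeks, a 1.77-fold difference (-0.82, SE 0.21, edgeR adjusted p = 0.00495). At 34 weeks it was 105, 134 and 160 CPM in WT mice and 50, 55.7 and 53.3 CPM in Lipa-/- mice, a 2.51-fold difference (-1.33, SE 0.21, edgeR adjusted p = 7.25e-05). All 6 Lipa-/- mice lay below all 6 WT mice. Cs, a common marker of mitochondrial mass, was 146, 131 and 152 CPM in WT mice against 97.2, 93 and 92.5 CPM in Lipa-/- mice at 12 weeks (-0.60, SE 0.21, edgeR adjusted p = 0.0333). At 34 weeks Cs was 104, 169 and 191 CPM in WT mice and 68.6, 71 and 88.4 CPM in Lipa-/- mice, a 2.03-fold difference (-1.02, SE 0.21, edgeR adjusted p = 0.000862). The groups were separate at both time points. The call of Cs at 12 weeks was lost on leaving out any of 5 of the 6 mice, WT mouse 1 (adjusted p = 0.0812) or 3 (0.0907), or Lipa-/- mouse 5 (0.0592), 8 (0.0818) or 9 (0.0819).

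Idh2, Idh3a and Ogdh, the 3 members for the oxidative decarboxylations after citrate, did not pass the edgeR test at either time point. DESeq2 with gene length offsets called Idh2 higher at 12 weeks (0.64, adjusted p = 0.0148). Idh2, which makes mitochondrial NADPH, was 90.4, 101 and 93.9 CPM in WT mice and 118, 154 and 152 CPM in Lipa-/- mice at 12 weeks, above WT in every mouse (0.57, SE 0.27, edgeR adjusted p = 0.108). At 34 weeks Idh2 stood at 130, 116 and 145 CPM against 93, 83.4 and 125 CPM (-0.37, SE 0.27, edgeR adjusted p = 0.278). Idh3a, the catalytic subunit of the NAD-linked enzyme, was 30 to 42.7 CPM in WT and 34.2 to 46.9 CPM in Lipa-/- mice at 12 weeks (0.06, 95% interval -0.51 to 0.63), and 35.1 to 37.7 against 23.3 to 39.2 CPM at 34 weeks (-0.34, -0.91 to 0.23). Ogdh, the E1 subunit of the oxoglutarate dehydrogenase complex, was 90.3 to 146 CPM in WT and 78.6 to 114 CPM in Lipa-/- mice at 12 weeks (-0.18, -0.93 to 0.58), and 72.4 to 170 against 97.8 to 113 CPM at 34 weeks (-0.35, -1.10 to 0.41). In both genes the groups overlapped at both time points. The intervals include a fall of the size of that of Cs at 12 weeks (-0.60), except that of Idh3a at 12 weeks. None of the 9 genes passed the test of a different Lipa-/- effect at 34 than at 12 weeks (0.0619% of all genes did, in edgeR), with 4 at an unadjusted p under 0.05, Suclg2 at -1.10, Suclg1 at -1.07, Idh2 at -0.94 and Fh1 at -0.89, all more negative at 34 weeks. DESeq2 called 1, Suclg2 (-1.05, adjusted p = 0.0215).

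**Figure D2:**
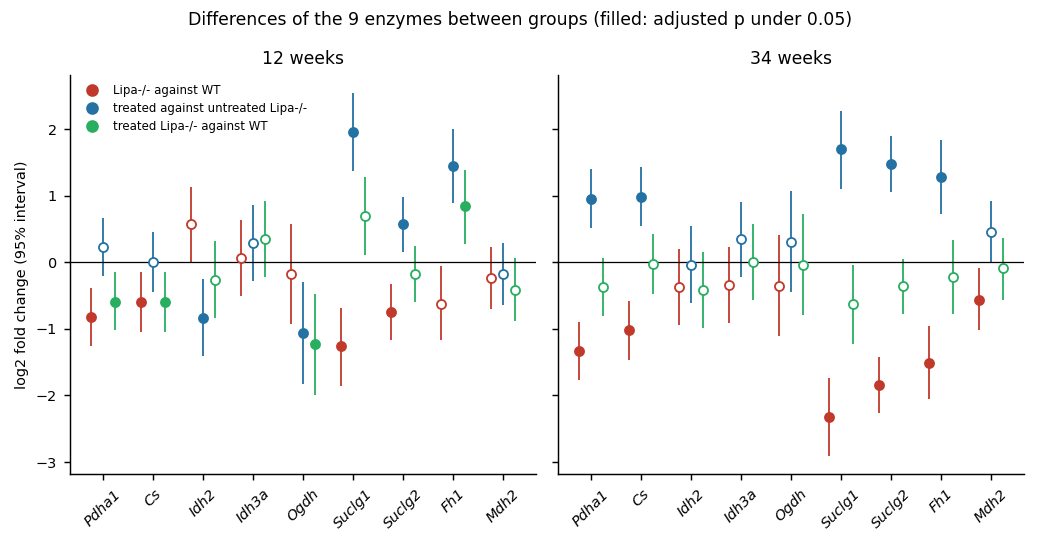
Log2 fold changes of the 9 enzymes with 95% intervals at 12 weeks (left) and 34 weeks (right) for Lipa-/- against WT (red), treated against untreated Lipa-/- (blue) and treated Lipa-/- against WT (green); filled points have an adjusted p under 0.05. At 34 weeks Suclg1 lies at -2.33 in untreated and at -0.63 in treated Lipa-/- mice against WT.

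The scale on which levels are set mattered for these differences, since the untreated Lipa-/- libraries had high TMM factors. With total read counts in place of TMM factors, the median gene shifted by 0.47 at 12 weeks and 0.63 at 34 weeks toward Lipa-/- mice, and 84% rather than 58.5% of called genes at 12 weeks and 79.1% rather than 50.3% at 34 weeks were higher in Lipa-/- mice. On that scale 1 of the 9 genes was lower (Suclg1, -0.79) and 1 higher (Idh2, 1.04) at 12 weeks, and 4 were lower at 34 weeks (Suclg1 -1.67, Suclg2 -1.24, Fh1 -0.86, Pdha1 -0.72). On the deposited TPM values, tested with limma on log2(TPM + 0.5), Suclg1 was lower at both times (-0.83, adjusted p = 0.0105, and -1.61, adjusted p = 2.58e-05) and Suclg2 at 34 weeks (-1.17, adjusted p = 0.000866), whereas Idh2 (1.11, adjusted p = 0.00508) and Idh3a (0.69, adjusted p = 0.0483) were higher at 12 weeks. The summed TPM of the 9 genes was 617 to 770 in WT and 674 to 772 in Lipa-/- mice at 12 weeks, and 724 to 1019 and 582 to 769 at 34 weeks. Their summed CPM after TMM scaling was 1280 to 1403 against 881 to 1054 at 12 weeks and 1491 to 1664 against 616 to 855 at 34 weeks. Suclg1 was lower at both time points on each of these scales, whereas Cs and Mdh2 passed on neither the total-count nor the TPM scale. The median of the 9 genes was -0.13 and -0.44 with total counts and 0.29 and -0.31 with TPM, so that its sign at 12 weeks turned with TPM. Upper quartile scaling shifted the median gene by 0.18 at 34 weeks and gave 3 and 5 members lower.

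**Figure D3:**
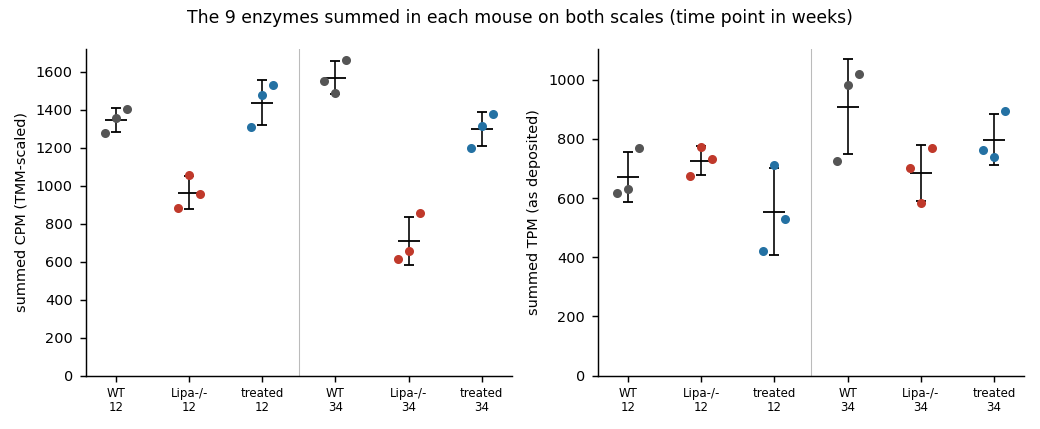
The 9 enzymes summed per mouse, as TMM-scaled CPM (left) and as deposited TPM (right), by group and time point in weeks; points are mice, bars are means and whiskers the SD of 3 mice. Untreated Lipa-/- mice lie at 616 to 855 CPM against 1491 to 1664 CPM in WT mice at 34 weeks, whereas the TPM sums overlap.

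The other genes of pyruvate entry were lower too, where 16.3% of all genes were lower at 12 weeks and 23.5% at 34 weeks. Of 7 partners, 5 were lower at 12 weeks and 7 at 34 weeks (median log2 fold change -0.92 and -1.52), and none was higher. With total counts 2 and 7 were lower, and with TPM 2 and 5. The E1 beta subunit Pdhb, which pairs with Pdha1, was 171, 206 and 145 CPM in WT mice and 46.5, 72.8 and 86 CPM in Lipa-/- mice at 12 weeks (-1.35, edgeR adjusted p = 0.000401), and it was lower at 34 weeks too (-1.66). The E2 component Dlat (-0.90 at 12 weeks and -1.47 at 34 weeks), the E3 component Dld (-1.02 and -1.52) and the E3-binding protein Pdhx (-1.14 and -1.25) fell. Pyruvate carboxylase Pcx, which makes oxaloacetate from pyruvate, fell too (-0.92 and -1.75). The mitochondrial pyruvate carrier genes Mpc1 (-0.22) and Mpc2 (-0.53) did not pass at 12 weeks and fell at 34 weeks (-1.42 and -1.66).

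The PDH complex is switched by phosphorylation. PDH kinases phosphorylate Pdha1 and PDH phosphatases remove the phosphate. Of 7 regulators, 2 were higher and 2 lower at 12 weeks, and 2 were higher and 3 lower at 34 weeks, where 22.9% of all genes were higher and 16.3% lower at 12 weeks and 23.8% and 23.5% at 34 weeks. With total counts and with TPM 2 were higher at each time, and 2 were lower except for 1 at 34 weeks with TPM. The kinase Pdk1 was 104, 92.3 and 96.4 CPM in WT mice at 12 weeks and 17.6, 27.5 and 35.6 CPM in Lipa-/- mice, and it fell at both times (-1.86 at 12 weeks, edgeR adjusted p = 2.07e-05, and -2.46 at 34 weeks, edgeR adjusted p = 1.15e-06). Pdk3, a kinase hardly read in WT livers (0.0536 to 0.63 CPM), was 1.06 to 4.52 CPM in Lipa-/- mice (3.75 at 12 weeks and 3.38 at 34 weeks). The phosphatase subunit Pdp1 was likewise higher, by 3.22 and 2.90, from 0.389 to 1.89 CPM in WT mice to 4.97 to 10.6 CPM. The regulatory subunit Pdpr fell at 12 weeks (-2.50), and Pdk4 (-1.36) and Pdp2 (-1.74) fell at 34 weeks. Pdk2, named here to complete the list, did not pass (-0.43 and -1.12). The macrophage marker sums given above move with Pdk3 and Pdp1, and their part in these 2 rises was not tested.

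Of 8 other subunits of cycle enzymes, 5 were lower at 12 weeks and all 8 at 34 weeks (median -0.99 and -1.70), with 3 and 6 by total counts and 2 and 4 by TPM. The share of all genes that were lower was 16.3% at 12 weeks and 23.5% at 34 weeks. Sdha, the flavoprotein of succinate dehydrogenase, was 377, 308 and 536 CPM in WT mice and 131, 181 and 132 CPM in Lipa-/- mice at 12 weeks, with log2 fold changes of -1.46 and, at 34 weeks, -1.66. Its partners Sdhb (-1.74), Sdhc (-1.02) and Sdhd (-2.14) were lower at 34 weeks, Sdhb also at 12 weeks (-0.86). The other subunits of NAD-linked isocitrate dehydrogenase fell, Idh3b at both times (-1.24 and -1.81) and Idh3g at 34 weeks (-0.85), and so did the E2 subunit of the oxoglutarate dehydrogenase complex, Dlst (-0.88 and -1.18).

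**Figure D4:**
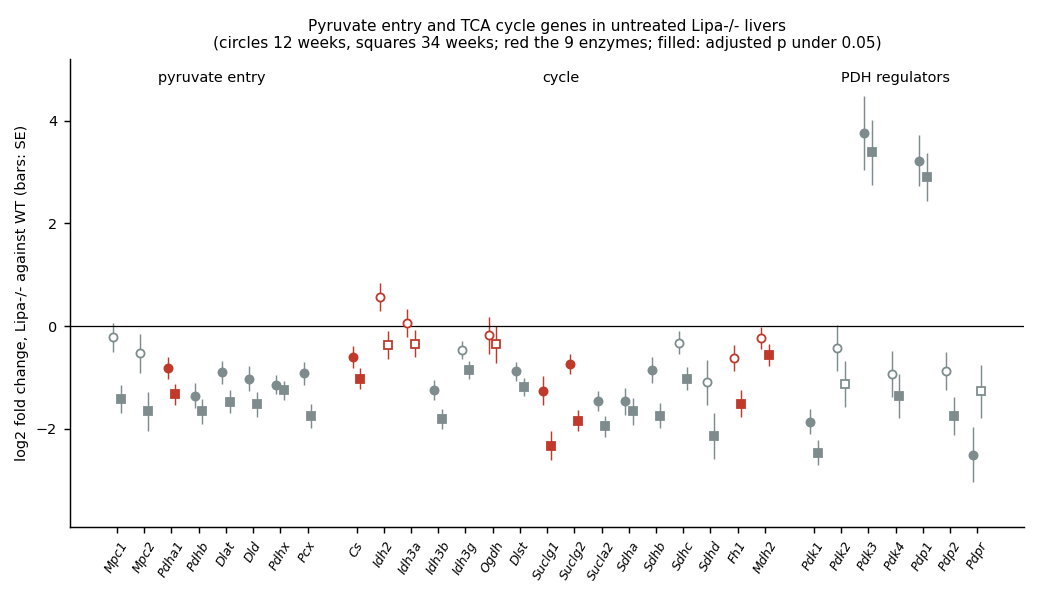
Log2 fold change of Lipa-/- against WT mice (bars, SE) for genes of pyruvate entry, the TCA cycle and PDH regulation at 12 weeks (circles) and 34 weeks (squares), with the 9 enzymes in red and other genes in grey; filled points have an adjusted p under 0.05. Suclg1 lies at -1.26 and -2.33, and Pdk3 and Pdp1 lie at 2.90 to 3.75.

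Pairs of genes were also set against each other within each mouse, as the log2 ratio of their CPM, which no scaling of libraries can change. The 8 pairs were chosen after the data had been seen, so their ratios are a description, with no test. The Idh3a to Idh3b ratio was -2.41 ± 0.26 in WT and -1.10 ± 0.27 in Lipa-/- mice at 12 weeks, and -2.35 ± 0.29 and -0.93 ± 0.17 at 34 weeks (SD, n = 3). The mean difference between Lipa-/- and WT mice over both time points was 1.37 for this pair, 0.51 for Idh3a to Idh3g and 0.82 for Ogdh to Dlst. It was -0.50 for Suclg1 to Suclg2, 0.46 for Pdha1 to Pdhb and -0.08 for Suclg1 to Sucla2.

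Mdh2 and Idh2 were set against the cytosolic enzymes of the same reactions. The Mdh2 to Mdh1 ratio was -0.83 ± 0.13 in Lipa-/- against -1.88 ± 0.02 in WT mice at 12 weeks, and -0.20 ± 0.08 against -1.64 ± 0.27 at 34 weeks (SD, n = 3). The Idh2 to Idh1 ratio was -1.04 ± 0.06 against -2.40 ± 0.02 at 12 weeks, and -0.86 ± 0.18 against -1.95 ± 0.12 at 34 weeks. At 34 weeks the long-to-short gene measure was 0.51 to 0.92 in Lipa-/- mice and -0.86 to 0.65 in WT mice, and its part in these ratios was not tested.

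**Figure D5:**
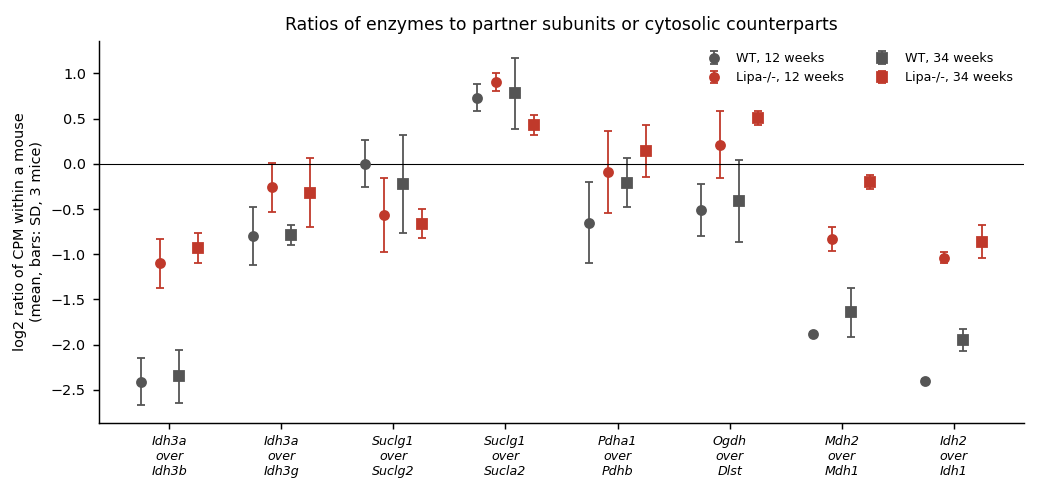
Log2 ratios of CPM within a mouse for 8 gene pairs (first gene over second) in WT (grey) and untreated Lipa-/- mice (red) at 12 weeks (circles) and 34 weeks (squares), as mean and SD of 3 mice. The means of Idh3a to Idh3b, Mdh2 to Mdh1 and Idh2 to Idh1 lie higher in Lipa-/- than in WT mice at both times.

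Over all genes tested, 16.3% were lower and 22.9% higher at 12 weeks, and 23.5% and 23.8% at 34 weeks. The cytosolic enzymes that exchange carbon with the cycle were all lower, 5 of 5 at both time points (median -1.28 and -1.99; 4 and 5 by total counts, 3 and 5 by TPM). Among them were Me1 (-3.71 and -4.64), the cytosolic malic enzyme, Acly (-2.11 and -2.39), which splits exported citrate, Mdh1 (-1.28 and -1.99) and Idh1 (-0.78 and -1.47). A further 9 genes tested feed carbon into the cycle or, as Pck2 and Me2, draw it out. Of these 9 genes, 6 were lower and 2 higher at both time points, so that the share higher is near that of all genes. With total counts 3 and 6 were lower, and with TPM 1 and 3. The lower genes included glutamate dehydrogenase Glud1 (-0.89 and -1.42), the aspartate aminotransferase Got2 (-0.86 and -1.44), propionyl-CoA carboxylase Pccb (-1.09 and -1.75) and Mmut (-1.28 and -1.80), the mutase that supplies succinyl-CoA. The 2 that were higher, named after their values were seen, were Pck2 (2.51 and 2.30), the mitochondrial phosphoenolpyruvate carboxykinase, and Me2 (2.34 and 2.03), a mitochondrial malic enzyme.

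The PDH and oxoglutarate dehydrogenase complexes need lipoic acid on their E2 subunits. For the 2 lists that follow, 16.3% of all genes were lower at 12 weeks and 23.5% at 34 weeks. Of 6 genes of lipoate synthesis and its iron-sulfur supply, 4 were lower at 12 weeks and 5 at 34 weeks, among them Glrx5 (-1.10 and -1.85), Nfu1 (-0.69 and -1.18) and lipoyl synthase Lias (-0.96 and -1.17), with Bola3 at -1.47 at 34 weeks. With total counts 3 and 4 were lower, and with TPM 3 and 4 were lower and 1 higher. Of the 4 assembly factors of succinate dehydrogenase, 0 were lower at 12 weeks in edgeR, 1 of them at an unadjusted p under 0.05 (Sdhaf3, -0.77), and 2 at 34 weeks, Sdhaf3 (-1.40) and Sdhaf4 (-0.88). Neither passed with total counts or TPM.

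Over all genes tested, 16.3% were lower at 12 weeks and 23.5% at 34 weeks. Of 7 regulators of mitochondrial gene expression, 3 were lower at 12 weeks and 4 at 34 weeks. They were Tfam (-0.67 and -1.43), which packages mitochondrial DNA, Gabpa (-0.75 and -0.84), Ppara (-1.42 and -1.98), the fatty acid sensor, and at 34 weeks Esrra (-0.63). Their list median turned positive with total counts (0.23 and 0.01) and TPM (0.25 and 0.06). Of 15 nuclear genes for mitochondrial proteins, 8 were lower and 1 higher at 12 weeks, and 12 lower and 1 higher at 34 weeks (median -0.69 and -1.07, by the side of -0.60 and -1.02 for the 9 enzymes). These are RNA levels, and mitochondrial content itself was not measured. Mitochondrially encoded genes took 5.68 to 5.73% of reads in Lipa-/- mice at 34 weeks and 4.58 to 7.85% in WT mice. With total counts 3 and 6 of the 15 nuclear genes were lower, and with TPM 1 and 4. Atp5a1 (-0.92 and -1.33), Uqcrc2 (-1.07 and -1.82) and Hspa9 (-0.97 and -0.90) fell at both times and Cox4i1 at 34 weeks (-1.20).

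Suclg1 and Fh1, the members with the largest rises at 12 weeks after treatment, are shown with the 150 bases before their annotated starts (GRCm39), to set their promoter sequences side by side. Capitals mark matches, on either strand, to 5 motifs that were searched: the NRF1 core GCGCATGCG, the ERR site TCAAGGTCA, the ETS core CCGGAAG, the GC box GGGCGG and the CCAAT box. The Suclg1 window, chr6:73225215-73225364 on the plus strand, overlaps 0 annotated genes and holds no match. The Fh1 window, chr1:175453206-175453355 on the minus strand, overlaps 1 other annotated gene and holds 1 GC box and 2 CCAAT boxes, all in the reverse direction.
Suclg1: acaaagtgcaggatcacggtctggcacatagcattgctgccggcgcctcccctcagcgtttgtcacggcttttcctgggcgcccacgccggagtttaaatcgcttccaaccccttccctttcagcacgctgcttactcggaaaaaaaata
Fh1: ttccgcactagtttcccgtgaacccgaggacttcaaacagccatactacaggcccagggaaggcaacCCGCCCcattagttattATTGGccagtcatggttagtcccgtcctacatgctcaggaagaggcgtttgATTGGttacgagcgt
Over windows of 250 bases before to 50 after the canonical GENCODE start of 21757 coding genes, read from the GRCm39 genome, the GC box was in 42.5% and in 6 of the 9 members, the CCAAT box in 39.9% and in 6, the ETS core in 10.3% and in 2 (Idh3a and Mdh2), the NRF1 core in 2.45% and in 0, and the ERR site in 0.473% and in 0. None of these 5 motifs was in all 9 members, and a missing match says only that these letters are not in the window.

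In treated Lipa-/- mice at 34 weeks, 5 of the 6 genes that were lower in untreated mice were higher than in those mice, all but Mdh2. Against untreated Lipa-/- mice 5 of the 9 were higher and 0 were lower, where 19.6% of all genes tested were higher and 21.4% were lower. Suclg1 was 127, 190 and 182 CPM in treated mice 9, 11 and 12, with the untreated mice at 41 to 67.2 CPM (1.70, SE 0.28, edgeR adjusted p = 0.000168). Suclg2 was 226, 237 and 214 CPM in the same mice (1.48, SE 0.20, edgeR adjusted p = 2.62e-05) and Fh1 148, 181 and 308 CPM (1.29, SE 0.26, edgeR adjusted p = 0.001). Cs rose 1.99-fold (0.99, SE 0.21) and Pdha1 1.94-fold (0.96, SE 0.21), and for these 5 genes every treated mouse was above every untreated Lipa-/- mouse. On TPM values Suclg1 (1.14, limma adjusted p = 0.000843) and Suclg2 (0.94, limma adjusted p = 0.00552) passed and the other 7 did not. Against WT at 34 weeks 0 of the 9 genes passed in edgeR, where 0.0895% of all genes were lower and 0.131% higher, and DESeq2 gave 0 as well. The differences ranged from -0.63 (Suclg1, 95% interval -1.22 to -0.04, unadjusted p = 0.0371, the single member under 0.05) to 0.00 (Idh3a). A p that misses the threshold does not show equal levels, and the interval of Suclg1 lies below 0.

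At 12 weeks after treatment Suclg1, Fh1 and Suclg2 were higher than in untreated Lipa-/- mice and Ogdh and Idh2 lower. Against untreated Lipa-/- mice 3 were higher and 2 lower, where 23.8% of all genes were higher and 30.4% lower, so that the share called is near that of all genes. With total counts the members called were 2 higher and 6 lower, and with TPM 1 higher and 6 lower. Suclg1 reached 372, 333 and 345 CPM in treated mice 10, 11 and 12 (1.96, SE 0.28, edgeR adjusted p = 5.35e-05) and Fh1 412, 426 and 407 CPM (1.45, SE 0.26, edgeR adjusted p = 0.000363), both above every WT mouse of that time point. Suclg2 rose by 0.57 (SE 0.20, edgeR adjusted p = 0.0235) to 176, 203 and 198 CPM. Ogdh was lower at 22.4, 58.5 and 64 CPM (-1.06, SE 0.36, edgeR adjusted p = 0.0215) and Idh2 at 42.7, 108 and 88.4 CPM (-0.83, SE 0.27, edgeR adjusted p = 0.0177), with the lowest value of both genes in mouse 10. On leaving out that mouse Ogdh stood at -0.75 (adjusted p = 0.0703), and it also missed the threshold without untreated mouse 8 (0.0558) or 5 (0.0624), as Idh2 did without mouse 8 (0.053). The call of Suclg2 was lost without treated mouse 11 (0.0633) or 12 (0.0654) or untreated mouse 9 (0.0727) or 5 (0.0803).

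Against WT at 12 weeks, 1 of the 9 was higher in treated mice and 3 were lower, where 19.4% of all genes were higher and 17.5% lower. Fh1 was higher by 0.84 (SE 0.26, edgeR adjusted p = 0.0233), whereas Ogdh (-1.23, SE 0.36, edgeR adjusted p = 0.0169), Cs (-0.59, SE 0.21, edgeR adjusted p = 0.04) and Pdha1 (-0.59, SE 0.21, edgeR adjusted p = 0.0369) were lower. Suclg1 differed by 0.70 (SE 0.28, edgeR adjusted p = 0.0575). Cs was 82, 86.5 and 116 CPM and Pdha1 57.8, 73.9 and 89.1 CPM in the treated mice, so that both overlapped with the untreated Lipa-/- mice. All 4 calls depended on single mice, and 0 to 3 of the 9 genes passed when each of the 6 mice of the 2 groups was left out in turn, with 0 on leaving out WT mouse 3 or treated mouse 10 and 2 on leaving out WT mouse 1 or treated mouse 11.

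These 12-weeks libraries of treated mice are those in which long genes were low. Mitochondrially encoded genes took 1.53 to 3.38% of their reads, against 4.63 to 7.19% in WT and 2.67 to 6.82% in untreated Lipa-/- mice at 12 weeks, and the part of this in the differences was not tested. The mean transcript length of the members in the deposited length table was 1108 bases for Mdh2 (log2 difference of treated from WT mice -0.41), 1277 for Suclg1 (0.70), 1283 for Fh1 (0.84), 1442 for Idh2 (-0.26) and 1933 for Idh3a (0.35). It was 2422 bases for Suclg2 (-0.17), 2591 for Pdha1 (-0.59), 2690 for Cs (-0.59) and 3752 for Ogdh (-1.23). With a trend on gene length and GC content removed in each library, an alternative chosen after the data had been seen, 4 members rose and 0 fell against untreated Lipa-/- mice at 12 weeks, with Ogdh at -0.35 (adjusted p = 0.271), Idh2 at -0.44 (0.104), Fh1 at 0.69 (0.00539) and Suclg1 at 1.77 (7.35e-06). Against WT the same fit left Fh1 at 0.13 (0.616) and Cs at -0.30 (0.153), and gave Ogdh (-0.79, 0.0315), Pdha1 (-0.63, 0.0203) and Mdh2 (-0.63, 0.0201) as lower. Under that fit 6 and 7 of the 9 genes were lower in untreated Lipa-/- than in WT mice at 12 and 34 weeks, against 4 and 6 without it, and 6 were higher and 0 lower with treatment at 34 weeks. This fit moved the median gene by -0.20 and -0.10 for Lipa-/- against WT mice and by 0.22 and 0.09 for treatment, with 42.1% rather than 58.5% of called genes higher in Lipa-/- mice at 12 weeks and 55.1% rather than 43.9% higher with treatment at 12 weeks. The total-count scale moved the median gene by -0.87 and -0.54 for treatment at 12 and 34 weeks, with 11.9% rather than 43.9% and 21% rather than 47.8% of called genes higher, and gave 3 members higher and 0 lower at 34 weeks. Against WT at 12 weeks it moved the median by -0.40, with 25.1% rather than 52.5% of called genes higher, and gave 5 members lower and 0 higher. On TPM values 1 member was higher with treatment at 12 weeks (Suclg1, 0.87, limma adjusted p = 0.00469) and 6 were lower, so that the median of the 9 genes at 12 weeks, 0.23 with TMM factors, was -0.63 with total counts and -0.89 with TPM. Upper quartile scaling shifted the median gene by -0.13 for treatment at 34 weeks and gave 5 members higher and 0 lower. For treated against WT mice at 34 weeks total counts gave 70.8% rather than 59.4% of called genes higher. Without the 3 mice with doubted libraries 3 members passed with treatment at 12 weeks (Suclg1 1.65, Fh1 1.38 and Idh2 -0.68) and 6 at 34 weeks.

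Many partners were higher with treatment as well. Over all genes tested, 23.8% were higher and 30.4% lower at 12 weeks, and 19.6% and 21.4% at 34 weeks. Of the 8 other cycle genes 6 rose and 0 fell at 12 weeks and all 8 rose at 34 weeks against untreated Lipa-/- mice (median 1.11 and 1.49), and of the 7 pyruvate entry partners 6 and 5 rose (median 1.23 and 1.08). With total counts 4 cycle genes rose and 1 fell at 12 weeks and 5 rose at 34 weeks, and 2 entry partners rose and 1 fell at 12 weeks and 4 rose at 34 weeks. The 12-weeks median of the cycle genes was 0.24 with total counts and 0.02 with TPM, where 3 rose and 2 fell. Sucla2 rose by 1.42 and 1.65, Idh3b by 1.64 and 1.49, Sdha by 0.78 and 1.56 and Pdhb by 0.97 and 1.45. The kinase Pdk1 rose by 1.41 and 2.24, and Pdk3 (-2.42 and -3.18) and Pdp1 (-1.17 and -2.66) fell. Against WT at 34 weeks 0 of these partners and regulators passed the test in edgeR, with 1 at an unadjusted p under 0.05 (Mpc1, -0.85). At 12 weeks Sdhd (1.39), Mpc2 (1.35), Mpc1 (0.78), Sdhb (0.74), Dld (0.71) and Pdp1 (2.05) were above WT, and Pdpr (-2.71), Pdk2 (-1.61), Dlat (-0.81) and Dlst (-0.49) were below it. The comparisons of treated mice share their untreated Lipa-/- or WT mice with those given before, so their directions are not independent of them.

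Over time, 0 of the 9 genes differed between 12 and 34 weeks in WT mice in edgeR (0.33% of all genes did, and 1 member, Suclg2, had an unadjusted p under 0.05) and 0 in untreated Lipa-/- mice (0.523% of all genes, with Suclg2, Fh1 and Suclg1 at an unadjusted p under 0.05). In DESeq2, 0 and 1 passed. In treated mice 4 of 9 did, where 45.2% of all genes differed, so that the share called is near that of all genes. Ogdh (1.40, SE 0.36) and Cs (0.67, SE 0.21) were higher and Suclg1 (-1.07, SE 0.28) and Fh1 (-0.97, SE 0.26) lower at 34 weeks. The call of Cs was lost without treated mouse 10 (adjusted p = 0.0505) or 11 (0.0594) of 12 weeks or 9 (0.0584) of 34 weeks. The treated-minus-WT difference changed between time points for 1 of 9, Suclg1 (-1.33, SE 0.39, edgeR adjusted p = 0.0325). Over all genes 19.6% passed this test, so that the share of members is not above that of all genes. The call of Suclg1 was lost without WT mouse 1 at either time (adjusted p = 0.0669 and 0.0979), WT mouse 3 at 12 weeks (0.0844), or treated mouse 10 at 12 weeks (0.0792), 9 (0.0899) or 11 (0.05) at 34 weeks. It was also lost with total counts (-0.80, adjusted p = 0.087) and TPM (-0.50, limma adjusted p = 0.297). The labels give different study codes for the time points (and a code of its own for Lipa-/- mouse 5 at 12 weeks), and time and code cannot be told apart.

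Compared per length, as TPM, the members had the same order in WT livers at both times. Suclg1, Mdh2 and Fh1 led at 143, 137 and 137 TPM at 12 weeks, with overlapping ranges, and at 193, 169 and 167 TPM at 34 weeks, where Suclg2 (122) and Mdh2 overlapped too in range. Idh3a was lowest, at 15.3 ± 1.79 and 18.5 ± 3.71 TPM (SD, n = 3), below Ogdh at 26 and 37 TPM, with ranges that overlapped at 34 weeks. In untreated Lipa-/- mice the order differed. Mdh2 at 185 and Fh1 at 127 TPM led at 34 weeks, Idh2 followed at 110 TPM with a range that overlapped that of Fh1, and Suclg1 came next at 63.7 ± 13.2 TPM, its range overlapping with that of Suclg2 (52.3) but not with that of Idh2. In treated mice at 34 weeks Mdh2 (168), Fh1 (156) and Suclg1 (139) led, with a range of Fh1 (109 to 232) that overlapped both others, whereas Mdh2 (155 to 183) and Suclg1 (120 to 153) did not overlap. In treated mice at 12 weeks Ogdh was lowest, at 7.45 ± 3.79 TPM, below all values of Idh3a (12.6 to 15.8 TPM).

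The members also differed among themselves in how far each followed their mean profile over the 18 mice. The root mean square difference in log2 CPM from that profile was 0.22 for Mdh2, 0.23 for Cs, 0.24 for Pdha1 and 0.30 for Suclg2, and 0.40 for Idh3a, 0.49 for Idh2, 0.55 for Fh1, 0.68 for Ogdh and 0.73 for Suclg1. Among 7626 other genes at 10 CPM or more on average, the 5 nearest to the members' mean profile over the 18 mice were Apeh, Mrps5 and Dele1 (each 0.12) and Cd81 and Gnpat (each 0.13). On TPM values the nearest 5 were Cd81, Gid8, Cfl2, Nadk and Rtf2, with Cd81 in both lists. The genes nearest in CPM were picked for their likeness over these same 18 mice. The directions given next therefore follow from that choice and are a description only. Mrps5, a protein of the mitochondrial ribosome, was lower in Lipa-/- mice (-0.58 and -1.07) and higher with treatment at 34 weeks (0.95). Dele1, a mitochondrial stress relay protein, was lower at both time points (-0.47 at 12 weeks) and higher with treatment at 34 weeks (0.78). Gnpat was lower at both times (-0.74 and -1.09). Apeh (-0.37) and Cd81 (-0.17) did not pass at 12 weeks and were lower at 34 weeks (-0.88 and -1.19). With treatment at 34 weeks Gnpat (0.93), Apeh (0.83) and Cd81 (0.82) were higher.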

How the data were processed

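Frozen liver was sequenced after poly(A) selection as paired reads of 150 bases by the authors, who quantified them with Salmon on GRCm39 transcripts and summarised them per gene with tximport. The deposited table of estimated counts, not normalized, was rounded and tested. The deposited TPM table (transcripts scaled for length and depth by the authors) gave levels between genes and an alternative test, and the deposited table of effective gene lengths gave other alternatives. A deposited table of the authors' own fold changes and p-values was not used.

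Genes with more than 100 reads over 18 mice were tested with edgeR 4.0.16 (R 4.3.3) by quasi-likelihood, with TMM factors, all 6 groups in a single fit and Benjamini-Hochberg adjustment over 14533 genes. A call is an adjusted p under 0.05. CPM are TMM-scaled, and intervals cover 95%. Untested genes held at most 0.0975% of a library. Alternatives used DESeq2 1.42.0, limma 3.58.1 (pseudocount 0.5) and those listed in the closing section. The models were tested on simulated data. The members, lists and gene pairs were chosen with earlier results of these data known. Named were all 9 members, the passing genes of the pyruvate entry, PDH regulator and cycle lists, up to 4 most abundant genes of other lists and the 5 genes nearest in profile. Of 16 mitochondrial content genes 15 were matched, and Ogdhl was below the read minimum. Gene models, exon counts and promoter windows followed the canonical GENCODE transcripts on the GRCm39 genome. The smallest chi-square per degree of freedom between 2 mice of a group was 45.3, so no library was a repeat. The labels name a mouse for each library, and p-values measure the spread between 3 mice a group. The spike-in RNAs were not analysed here, and 1 gene of the cycle list is not reported here. Mouse numbers shared between time points stand for different study codes and pair no mice.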

Additional observations from a re-analysis of the deposited data

Results flagged for a closer look

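The treated-minus-WT difference changed between 12 and 34 weeks for 6 genes among the 9 members, 7 entry partners, 8 other cycle genes and 7 regulators, by an interaction term in edgeR's quasi-likelihood test that 19.6% of all genes passed, so that the count is near that of all genes. Suclg1 changed by -1.33 (adjusted p = 0.0325), with log2 fold changes against WT of 0.70 at 12 weeks and -0.63 at 34 weeks. Dld, the E3 component, changed by -1.16 (adjusted p = 0.0332), and the carrier genes Mpc1 and Mpc2 by -1.64 (0.0241) and -2.05 (0.026). Sdhd, a membrane anchor of succinate dehydrogenase, changed by -2.01 (0.0375), and Pdpr, the regulatory subunit of the PDH phosphatase, by 2.99 (0.0257). With the trend on gene length and GC content removed, Suclg1 stood at -0.90 (adjusted p = 0.0466), and without the 3 mice doubted for their libraries at -0.90 (0.111). With total counts it stood at -0.80 (0.087) and with TPM at -0.50 (limma adjusted p = 0.297). The long-to-short gene measure was -1.48 to -1.19 in the treated mice at 12 weeks and -0.12 to 1.20 at 34 weeks, and its part in the other 5 was not tested.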

How the results depend on the processing

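Of 29 member differences that passed, 474 alternative values kept direction and call in 378, lost the call in 92 and reversed in 4. Of 70 that did not, 1236 values kept both in 1095, passed in 47 and reversed in 94. Of 100 partner differences that passed between Lipa-/- and WT mice, 1600 values lost the call in 139 (31 with total counts, 47 with TPM, 61 elsewhere) and reversed for Esrra at 34 weeks only (0.01 with total counts, 0.07 with TPM). DESeq2, length offsets, the low-count filters and the fit of only the groups compared are among these. The causes were not tested.

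With total counts the reversed log2 differences were, Lipa-/- against WT, 0.28 (Ogdh) and 0.24 (Mdh2) at 12 weeks and 0.25 (Idh2), 0.28 (Idh3a), 0.23 (Ogdh) and 0.05 (Mdh2) at 34 weeks. For treated against untreated mice they were -0.87 (Cs), -0.62 (Idh3a), -0.29 (Suclg2) and -0.63 (Pdha1) at 12 weeks and -0.17 (Idh3a), -0.23 (Ogdh) and -0.07 (Mdh2) at 34 weeks, and against WT -0.08 (Idh3a, 12 weeks), 0.03 (Cs) and 0.00 (Ogdh). Members past the test came to 2, 8, 3 and 0 (Lipa-/- against WT at 12 weeks, treatment at 12 and 34 weeks, treated-by-time term). With TPM the reversed values were 0.30 (Ogdh), 0.29 (Fh1) and 0.29 (Mdh2) at 12 weeks and 0.31 (Idh2), 0.41 (Idh3a), 0.44 (Ogdh) and 0.17 (Mdh2) at 34 weeks for Lipa-/- against WT. For treatment they were -1.12 (Cs), -0.83 (Idh3a), -0.52 (Suclg2) and -0.89 (Pdha1) at 12 weeks and -0.35 (Idh3a), -0.27 (Ogdh) and -0.14 (Mdh2) at 34 weeks, and against WT -0.15 (Idh3a, 12 weeks), 0.14 (Cs), 0.16 (Ogdh) and 0.04 (Mdh2). Members past the test came to 2 (Lipa-/- against WT at 34 weeks), 2 (treatment at 34 weeks) and 2 (treated-by-time, Cs and Ogdh in place of Suclg1).

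Small reversals under other settings were Idh3a -0.05 (Lipa-/- against WT, 12 weeks), Mdh2 0.01 and Idh2 0.08 (treatment at 12 and 34 weeks) with the length and GC trend removed. Cs for treatment at 12 weeks gave -0.08 with upper quartile scaling and -0.02 with length offsets and with no filter. For treated against WT mice at 34 weeks upper quartile scaling gave 0.02 (Cs) and 0.01 (Ogdh), DESeq2 -0.00 (Idh3a), and 3 doubted mice left out 0.00 (Fh1). Counts moved to 3 for treatment at 12 weeks and 0 for the treated-by-time term with only the groups compared or without the 3 doubted mice, which also gave 1 for Lipa-/- mice over time. The treated-by-time count was 2 with length offsets and with DESeq2, which gave 1 for Lipa-/- mice over time and for the Lipa-/- by time term. With no filter 2 members passed for treated against WT mice at 12 weeks.

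Leaving out each mouse in turn gave 3 to 4 members for treatment at 12 weeks (5 with all mice), 0 to 3 for treated against WT mice at 12 weeks and 0 to 2 for the treated-by-time term. The ranges of differences that crossed 0 were, Lipa-/- against WT at 12 weeks, -0.09 to 0.17 (Idh3a) and -0.32 to 0.04 (Ogdh). For treatment they were -0.19 to 0.07 (Cs) and -0.36 to 0.02 (Mdh2) at 12 weeks and -0.16 to 0.15 (Idh2) and -0.01 to 0.62 (Idh3a) at 34 weeks. For treated against WT mice at 34 weeks they were -0.25 to 0.15 (Cs), -0.59 to 0.00 (Fh1), -0.32 to 0.15 (Idh3a) and -0.33 to 0.19 (Ogdh).

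WT mice 1, 2 and 3 and treated mice 11 and 12 share numbers between time points but not study codes, and deviations of same-numbered mice correlated at 0.08, -0.24 and 0.46 (WT) and -0.08 and -0.25 (treated), so they share a number only. With mouse number as a replicate block 0 members passed in both, against 0 and 4 without it, and 11 rather than 48 and 1694 rather than 6573 genes passed.

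Precision rests on 3 mice a group and on reads of 231 (Ogdh) to 8200 (Suclg2) per mouse, so counting error is small beside the spread between mice. The 34-weeks Lipa-/- mice had the lowest median hepatocyte marker sum, with a range that overlapped those of the other groups except WT mice at 12 weeks, and composition was not separated from expression.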
